A study of Mus musculus with 6 samples.

Results

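The genes examined here encode proteins that detect, edit or act on double-stranded RNA: Ddx58, Ifih1, Dhx58, Mavs, Eif2ak2, Adar and Ddx60. They were taken by symbol from the table of transcript levels, and all 7 were among its 24493 gene symbols. Of these, 6 had a mean of at least 1 TPM (transcripts per 1000000 transcripts) over the libraries and entered the test across 12141 genes, while Ddx60 lay below that level. The levels came from mRNA sequencing of 6 mouse libraries, 3 wild-type (WT) and 3 of the genotype Ifnar1-SA, from splenic naive CD4 T cells driven towards regulatory T (Treg) cells in culture. In published work the SA allele is a knock-in in which a serine of the interferon receptor chain IFNAR1 is replaced by alanine, which hinders degradation of the receptor. No treatment other than the differentiation, no age and no strain is given in the labels, and separate animals or cultures are not named for the libraries. The p-values therefore cover the spread among these 6 libraries alone, which may be technical. The comparison asked how transcript levels of these genes differed between the genotypes.

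RIG-I (encoded by Ddx58) and MDA5 (Ifih1) are cytosolic helicases that bind double-stranded or unusually capped RNA, usually of viral origin, and pass the signal to the adaptor MAVS on mitochondria, which leads to type I interferon production. LGP2 (Dhx58) is a related receptor without the signalling domains and modulates the other receptors. The kinase PKR (Eif2ak2) binds double-stranded RNA and halts translation by phosphorylating eIF2, and the deaminase ADAR1 (Adar) converts adenosine to inosine in the cell's own double-stranded RNA, which keeps MDA5 and PKR from responding to it. Most of these genes are themselves targets of interferon through a promoter element, whereas MAVS is a constitutive adaptor in many cells. DDX60 is a helicase described as an interferon-inducible cofactor of RIG-I.

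The promoters are shown as a description of sequence that does not use the transcript levels. Most of these genes are known interferon targets, so a share of matches above that of all genes is no independent finding. RefSeq promoters of GRCm38.p6, from 250 bases before to 50 bases after the transcript start, were matched by symbol for 6 of the 7 genes (Dhx58 was not matched). They were searched on both strands for GAAA, any 2 bases and GAAA again, the core of the interferon-stimulated response element. It occurred in 4 of the 6 genes, Ddx58, Ifih1, Eif2ak2 and Ddx60, and in 1079 of all 27025 genes in the table, or 3.99% (3.44% of its 32851 promoters). The promoters of Mavs and the 3 listed starts of Adar held no match, which says only that these letters are absent from the windows. The gamma-activated site TTCNNNGAA, which reads the same on both strands, occurred in Eif2ak2 and at 1 start of Adar, against 9.55% of all genes and 8.3% of all promoters. A match is a description of the sequence and no evidence of binding.

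Ddx60 held 2 matches, at 53 to 44 and at 19 to 10 bases before the start, on the plus strand of chromosome 8. Its 250 bases before the start (chr8:61927837-61928086) and those of Mavs (chr2:131233813-131234062, plus strand) are given 5′ to 3′, with matches in capitals. For Ddx58 (chr4:40239804-40239833), Ifih1 (chr2:62646206-62646235) and Eif2ak2 (chr17:78882535-78882564), all on the minus strand, the match began at bases 3, 33 and 19, counted from 1 at the start, and 30 bases around it are given in the direction of the gene. In Ddx58 the motif reads on the opposite strand.
Ddx60: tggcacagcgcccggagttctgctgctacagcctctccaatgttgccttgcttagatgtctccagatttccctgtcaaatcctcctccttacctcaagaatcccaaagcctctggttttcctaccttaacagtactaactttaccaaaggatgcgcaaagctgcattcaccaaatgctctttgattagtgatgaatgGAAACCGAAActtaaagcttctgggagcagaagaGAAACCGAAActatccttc
Mavs: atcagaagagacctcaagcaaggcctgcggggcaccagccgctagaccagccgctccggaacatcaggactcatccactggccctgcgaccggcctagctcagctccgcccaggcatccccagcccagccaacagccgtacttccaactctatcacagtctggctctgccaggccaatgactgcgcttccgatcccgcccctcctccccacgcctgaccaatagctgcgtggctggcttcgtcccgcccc
Ddx58: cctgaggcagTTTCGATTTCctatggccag
Ifih1: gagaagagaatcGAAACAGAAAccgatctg
Eif2ak2: agtccgccggGAAAACGAAAcagaagagaa

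TPM corrects for transcript length and sums to 1000000 in each library, so levels can be compared between genes, while the sequencing depth behind a value is unknown. The median TPM of the genes tested was 9.82 in WT 2 and 9.56 in Ifnar1-SA 1, against 7.42 to 8.38 in the other 4 libraries, and deviations from the genotype means were most alike between these libraries (r = 0.248 across genes). Over all 12141 genes limma called 7, or 0.0577% (0.0165% higher and 0.0412% lower in Ifnar1-SA), and all 7 are microRNA genes that were at 0 TPM in every library of 1 genotype. The sums of 9 CD4 T cell markers were 2374 to 2500 TPM for WT and 2435 to 2766 TPM for Ifnar1-SA. Of the 9, 3 (Cd3d, Cd3g and Zap70) were higher in Ifnar1-SA without overlap, beside 1.97% of all genes. Foxp3, the gene that defines Treg cells, was at only 0.276 to 0.697 TPM for WT and 0.746 to 1.82 TPM for Ifnar1-SA, while Il2ra and Ctla4, also high in activated T cells, averaged 390 and 575 TPM (WT) and 437 and 805 TPM (Ifnar1-SA). Ctla4 did not overlap (482 to 698 against 762 to 876 TPM), nor did Il10 of the same list (134.7 to 221.5 against 256.2 to 343.5 TPM). These were 2 of the 10 Treg markers tested, of which 4 had higher and 6 lower means in Ifnar1-SA. The lower ones were Ikzf2, Ikzf4, Tnfrsf18, Lrrc32, Nrp1 and Gpr83. Foxp3 was too low to be tested, and its Ifnar1-SA libraries lay above those of WT without overlap, by little and near the floor. The cells are therefore called by their label and not as typed Treg cells.

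By their mean over both genotypes the genes ran from Eif2ak2 through Dhx58, Mavs, Adar and Ddx58 to Ifih1 and Ddx60. Within a genotype the order of the middle genes was another, Mavs (9.99 TPM), Dhx58 (8.42 TPM) and Adar (7.17 TPM) in WT and Dhx58 (14.5 TPM), Adar (11.5 TPM) and Mavs (9.32 TPM) in Ifnar1-SA. Eif2ak2 averaged 23.2 ± 4.88 TPM over the 6 libraries (SD) and exceeded Dhx58, the next gene, in 6 of 6 libraries. Dhx58 (11.5 ± 4.56 TPM), Mavs (9.65 ± 1.88 TPM) and Adar (9.32 ± 3.03 TPM) did not differ beyond their spread, with Dhx58 above Mavs in 4 of 6 libraries and Mavs above Adar in 3 of 6. Ddx58 followed at 3.85 ± 1.14 TPM, then Ifih1 at 1.53 ± 0.440 TPM and Ddx60 at 0.269 ± 0.0794 TPM, and each was below its neighbour in 6 of 6 libraries. Transcripts of the receptor without signalling domains thus outnumbered those of the pair that signals. Dhx58 made up 58.8 to 69.7% of the summed TPM of the 3 receptors in WT and 68.5 to 70.8% in Ifnar1-SA, and Ifih1 7.42 to 13.3% and 8.30 to 9.06%.

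**Figure D1:**
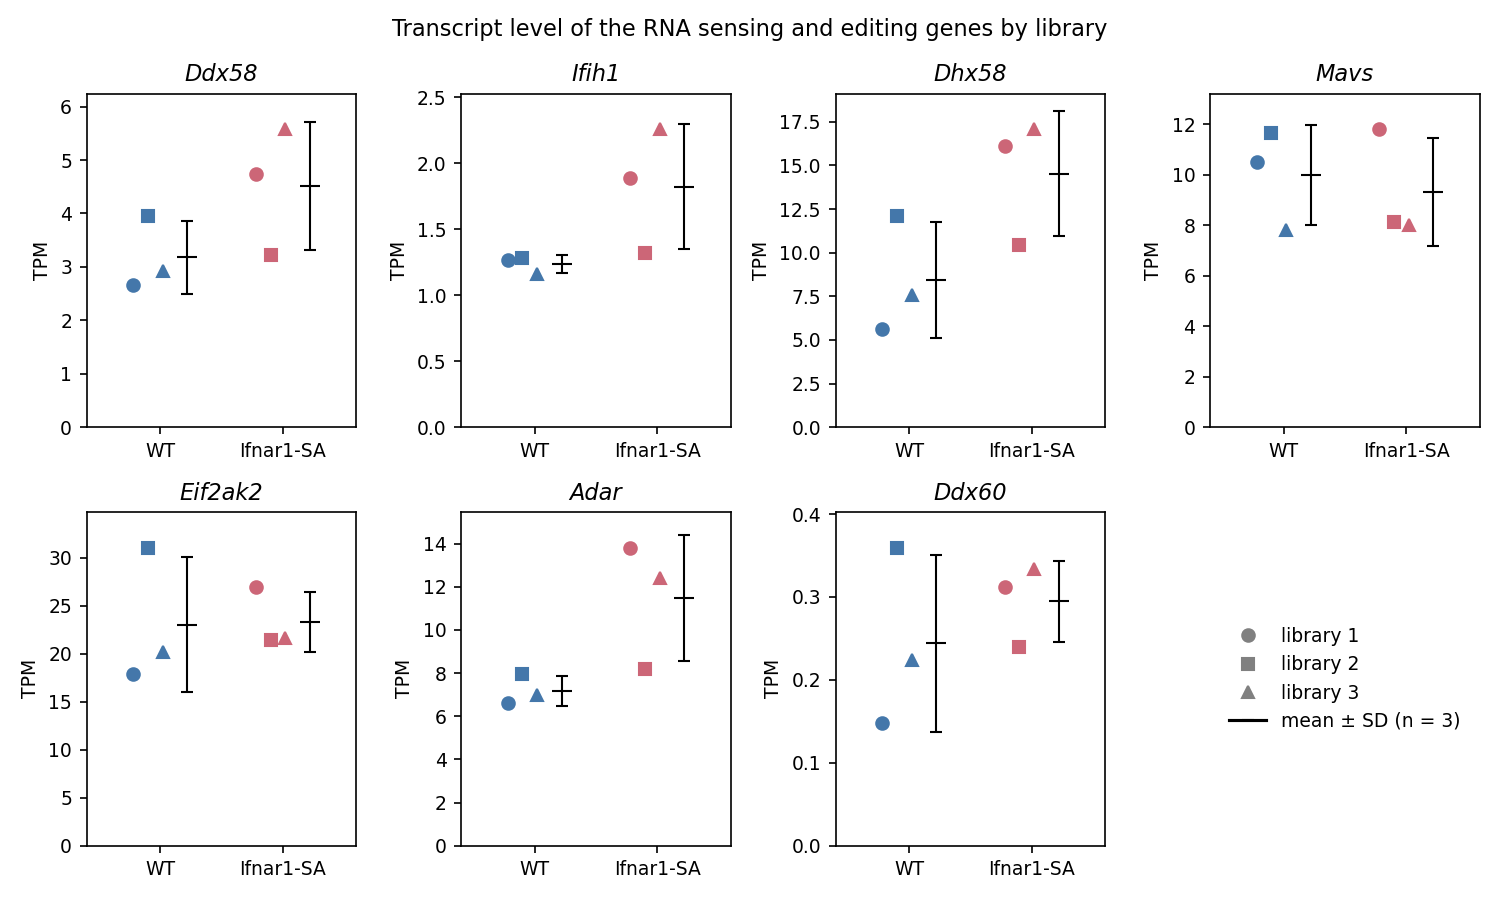
TPM of the 7 genes by genotype, 1 panel per gene with its own axis from 0; each symbol is a library, and bars are mean ± SD (n = 3). Adar and Ifih1 separated the genotypes, with Ifnar1-SA 2 the lowest of the Ifnar1-SA libraries for both, while Mavs and Eif2ak2 overlapped.

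Among the RIG-I-like receptors, all 3 genes had higher means in Ifnar1-SA and none passed the test over all genes. Dhx58 (chromosome 11, 100694884 to 100704271, minus strand, positions from GENCODE M21 on GRCm38) had 5.60, 12.1 and 7.59 TPM in WT 1, 2 and 3 and 16.1, 10.4 and 17.1 TPM in Ifnar1-SA 1, 2 and 3. WT 2 lay above Ifnar1-SA 2, so the genotypes overlapped at that 1 pair of libraries. The means were 8.42 ± 3.32 and 14.5 ± 3.60 TPM, 1.73-fold apart. The difference in log2(TPM + 1), a scale that understates the change of low genes, was 0.75 (standard error 0.30), with a 95% interval of 0.05 to 1.45 (limma, adjusted p = 0.9997 over all genes). The exact two-sided permutation p was 0.2, where 3 against 3 libraries cannot go below 0.1.

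Ddx58 (chromosome 4, 40203773 to 40239828, minus strand) measured 2.66, 3.96 and 2.92 TPM in WT, and its Ifnar1-SA libraries had 4.75, 3.22 and 5.58 TPM. The same 2 libraries crossed, WT 2 above Ifnar1-SA 2. The log2 difference was 0.39 (standard error 0.22) with a 95% interval of −0.13 to 0.90 (limma, adjusted p = 0.9997). Ifih1 (chromosome 2, 62595798 to 62646255, minus strand) measured 1.27, 1.28 and 1.16 TPM (WT) and 1.89, 1.32 and 2.26 TPM (Ifnar1-SA), without overlap, although Ifnar1-SA 2 exceeded the highest WT library by little. Its log2 difference was 0.32 (standard error 0.19) and a 95% interval of −0.13 to 0.77 (limma, adjusted p = 0.9997), at levels where a pseudocount of 1 TPM weighs heavily. With a pseudocount of 0.1 TPM it was 0.49. Without Ifnar1-SA 3, the highest library for both genes, the difference of Ddx58 was 0.25 and that of Ifih1 0.21.

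Mavs, through which RIG-I and MDA5 signal, was at about the same level in both genotypes. The gene (chromosome 2, 131234063 to 131248025, plus strand) was at 10.5, 11.6 and 7.80 TPM (WT) and 11.8, 8.13 and 8.02 TPM (Ifnar1-SA). Both ranges spanned nearly the same values, with WT 2 and Ifnar1-SA 1 the highest of their genotypes. On the log2 scale the difference was −0.09 (standard error 0.21), and its 95% interval of −0.60 to 0.41 leaves room for a change of either sign (limma, adjusted p = 0.9997). The sign turned with the scaling, to 0.00093 with median-of-ratios and 0.04 with TMM (trimmed mean of M-values) scaling.

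Of the genes for the proteins that act on double-stranded RNA, Adar was higher in every Ifnar1-SA library than in any WT library, and Eif2ak2 overlapped in TPM. Adar (chromosome 3, 89715022 to 89753446, plus strand) was at 6.61, 7.94 and 6.97 TPM (WT) and 13.8, 8.20 and 12.4 TPM (Ifnar1-SA). The WT libraries lay close together, and Ifnar1-SA 2 was nearer to them than to the other Ifnar1-SA libraries. The means of 7.17 ± 0.686 and 11.5 ± 2.92 TPM were 1.60-fold apart. The log2 difference was 0.58 (standard error 0.21) with a 95% interval of 0.09 to 1.08 (limma, adjusted p = 0.9997). The exact two-sided permutation p of 0.1 was the smallest these libraries allow. The annotation lists 5 protein-coding transcripts of Adar from 2 starts. A value per gene cannot tell the long interferon-inducible form of ADAR1 from the short constitutive one.

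Eif2ak2 (chromosome 17, 78852564 to 78882573, minus strand) measured 17.9, 31.0 and 20.2 TPM (WT) and 26.9, 21.4 and 21.6 TPM (Ifnar1-SA). WT 2 was the highest of all 6 libraries and WT 1 the lowest. The log2 difference was 0.05 (standard error 0.23) with a 95% interval of −0.50 to 0.59 (limma, adjusted p = 0.9997). It was −0.11 without WT 1, −0.02 without WT 3 and −0.06 without Ifnar1-SA 1. Ddx60 (chromosome 8, 61928087 to 62038244, plus strand) was near the floor, at 0.149, 0.359 and 0.224 TPM (WT) and 0.312, 0.240 and 0.333 TPM (Ifnar1-SA). These ranges overlapped, and the exact two-sided permutation p was 0.6.

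Over the 6 genes tested, 0 passed an adjusted p of 0.05 in limma, beside 0.0577% of all genes. An unadjusted p under 0.05 was found for 2, Dhx58 and Adar, both higher in Ifnar1-SA, beside 3.12% of all genes (1.44% higher and 1.68% lower). That ended for both with a replicate block and without WT 1, WT 3, Ifnar1-SA 1 or Ifnar1-SA 3, and for Adar also without both WT 2 and Ifnar1-SA 1, so in 5 and 6 of 17 alternatives. Higher means were found for 5 of 6, beside 37.1% of all genes, and 2 of 6 had libraries without overlap on the higher side, beside 1.97% of all genes. None had libraries without overlap on the lower side (3.8% of all genes). The share of 37.1% with higher means holds for unscaled TPM. After median-of-ratios and TMM scaling the median log2 difference of all genes was above 0, at 0.03 and 0.07. Mavs was then above 0 too. The share of all genes with higher means was not computed under those scalings. The median log2 difference of the 6 was 0.35, against −0.06 for all genes tested. The genes were chosen with earlier results of these data known, so these counts describe them and are not independent support. Several of the 6 were correlated over the libraries, so their signs are not separate observations.

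**Figure D2:**
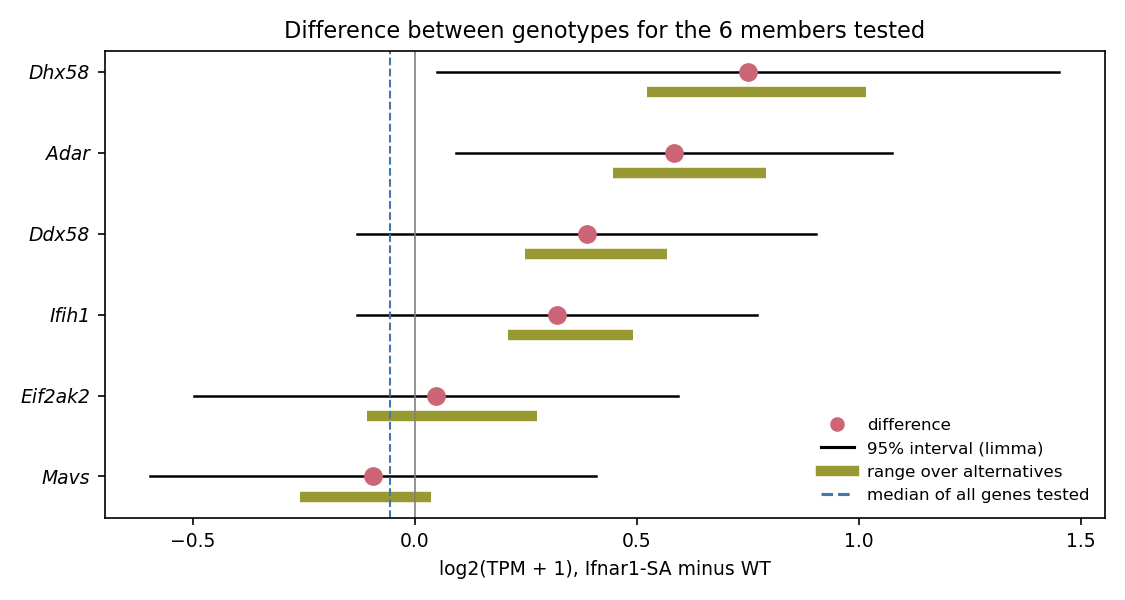
Difference in log2(TPM + 1), Ifnar1-SA minus WT, for the 6 genes tested (points) with 95% intervals from limma (black), the range over the 17 alternative settings that gave a value (olive) and the median of all genes tested (dashed). The intervals drawn for Dhx58 (0.75) and Adar (0.58) lie above 0 but included 0 in 5 and 6 of the 17 alternatives, and for Eif2ak2 and Mavs the range of differences crossed 0.

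Scaling bore on which libraries overlapped. Median-of-ratios and TMM scaling divided WT 2 by 1.27 and 1.32, the largest factors, and moved the median log2 difference of all genes from −0.06 to 0.03 and 0.07. After TMM scaling Dhx58 was at 6.30, 9.12 and 7.67 in WT and 14.4, 11.5 and 20.1 in Ifnar1-SA, and Ddx58 at 2.99, 2.99 and 2.96 against 4.25, 3.55 and 6.57. Neither then overlapped between the genotypes. The count of genes without overlap on the higher side was 4 with median-of-ratios scaling (3.68% of all genes) and 5 with TMM scaling (4.28% of all genes), the fifth being Eif2ak2 at 20.1, 23.4 and 20.4 against 24.1, 23.6 and 25.5. With quantile scaling the count was 3 (4.55% of all genes), since Ddx58 and Dhx58 no longer overlapped and Ifih1 did. No gene of the 6 passed the adjusted test under these 3 scalings.

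Ratios between these genes within a library do not depend on scaling by a single factor per library, while quantile scaling can change them. Those given were chosen after the levels had been seen, so they carry no test. Adar over Mavs was 0.629, 0.682 and 0.893 in WT and 1.17, 1.01 and 1.55 in Ifnar1-SA. Dhx58 over Mavs was 0.533, 1.04 and 0.973 in WT and 1.36, 1.28 and 2.13 in Ifnar1-SA. Neither ratio overlapped, and the ratios of Ddx58 and Ifih1 to Mavs did not overlap either, where 5.56% of all genes had a ratio to Mavs that was higher in Ifnar1-SA without overlap. All of these share the Mavs values, which were lowest in WT 3, Ifnar1-SA 2 and Ifnar1-SA 3.

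ADAR1 and PKR meet on the same double-stranded RNA, and Adar transcripts were the fewer of the pair in every library. Adar over Eif2ak2 was 0.370, 0.256 and 0.345 in WT and 0.513, 0.383 and 0.575 in Ifnar1-SA. Dhx58 over Eif2ak2 ran from 0.314 to 0.389 (WT) and from 0.486 to 0.790 (Ifnar1-SA). Both were higher in Ifnar1-SA without overlap, as were the ratios of 0.857% of all genes to Eif2ak2. Eif2ak2 over Mavs overlapped, at 1.70 to 2.67 and 2.28 to 2.69. Ddx58 over Ifih1, the 2 signalling receptors, ran from 2.09 to 3.08 (WT) and from 2.44 to 2.51 (Ifnar1-SA), so the genotypes overlapped. Dhx58 over Ddx58 ran from 2.11 to 3.05 (WT) and from 3.06 to 3.39 (Ifnar1-SA), separated by a narrow gap. No share of all genes was computed for ratios to Ddx58, so nothing is read from that gap.

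**Figure D3:**
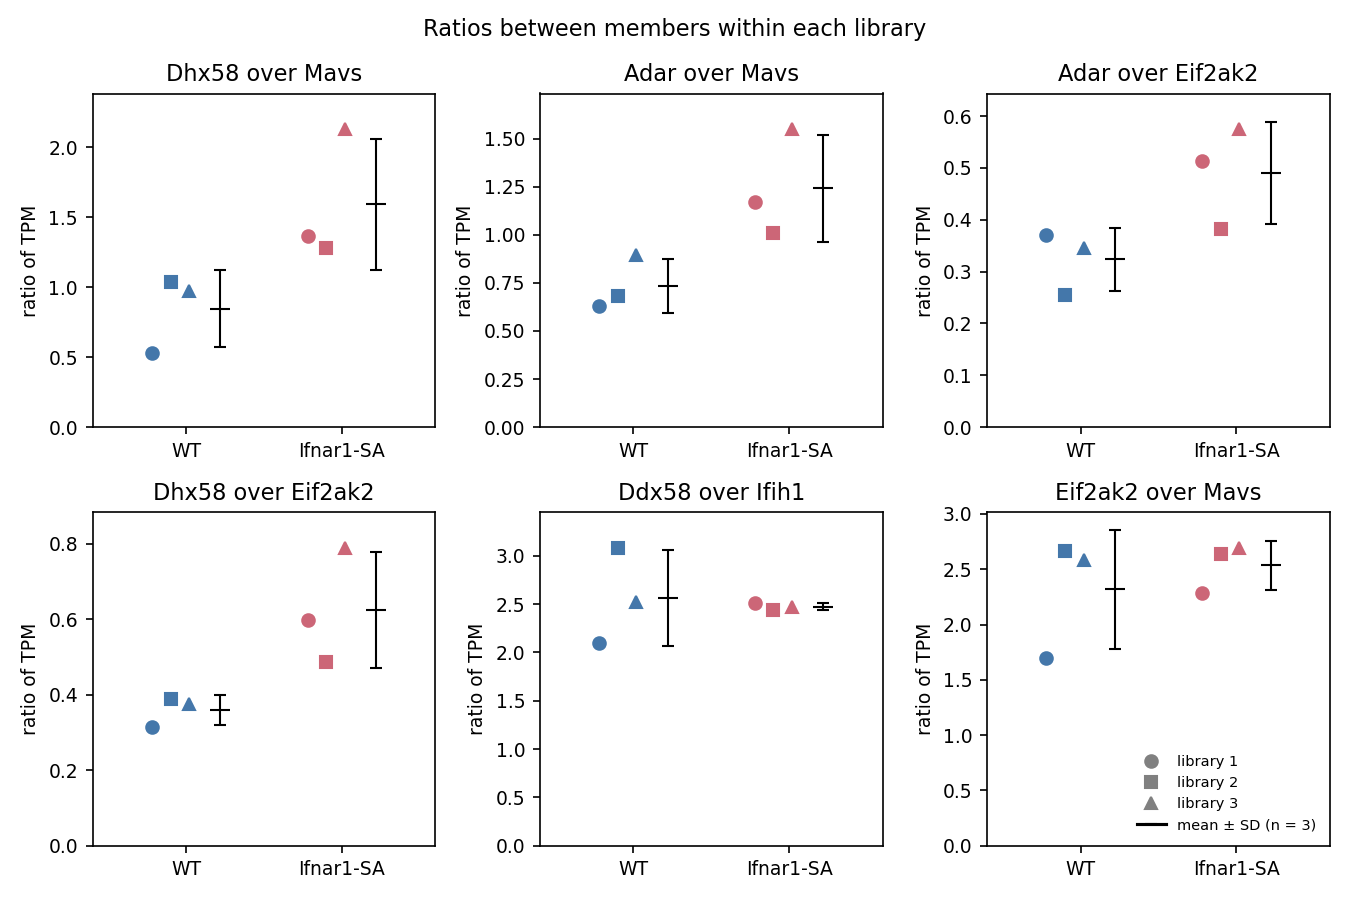
Ratios of TPM within each library for 6 pairs of genes, by genotype, each axis from 0; symbols are libraries and bars are mean ± SD (n = 3). Dhx58 and Adar were higher relative to Mavs and to Eif2ak2 in all 3 Ifnar1-SA libraries, while Ddx58 over Ifih1 and Eif2ak2 over Mavs overlapped.

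Across the 6 libraries, Ddx58, Ifih1, Dhx58 and Adar varied together more closely than with Mavs. Pearson's r of log2(TPM + 1) among Ddx58, Ifih1, Dhx58 and Adar was 0.812 to 0.956, with Ddx58 and Dhx58 the closest pair. Mavs had an r of −0.0057 to 0.159 with these 4, and Eif2ak2 0.168 to 0.637. Ddx60, near the floor, had an r of 0.890 with Dhx58, 0.841 with Ddx58 and 0.848 with Eif2ak2, so the genes did not part into separate sets. The 6 points share their libraries and scaling and include the genotype difference, so these values describe this sample set. In Ifnar1-SA 2 all 7 genes lay below their mean over the 6 libraries, and in Ifnar1-SA 1 all 7 lay above it. Ifnar1-SA 3 was the highest library for Ddx58, Ifih1 and Dhx58 but below the mean for Mavs and Eif2ak2.

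**Figure D4:**
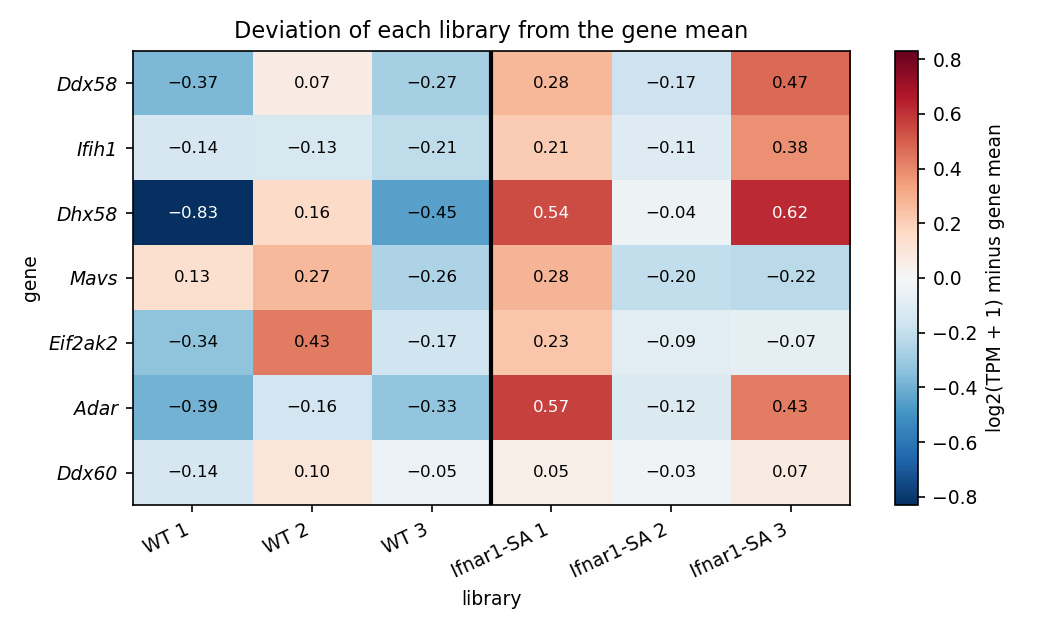
Log2(TPM + 1) of each gene in each library minus the mean of that gene over the 6 libraries; red is above and blue below the mean, and the line divides WT from Ifnar1-SA. Dhx58 spans the widest range, from −0.83 in WT 1 to 0.62 in Ifnar1-SA 3, and Ifnar1-SA 2 is below the mean for all 7 genes.

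The genes with the most similar pattern over the 6 libraries were sought among genes averaging 5 TPM or more, 6722 beside the gene itself (6723 for Ddx58 and Ifih1). For Ddx58 they included Plk3 (r = 0.975) and Dhx58 (0.956), and for Dhx58 they were Ubash3b (0.983), Usp18 (0.967) and Irf9 (0.965). For Ifih1 they were Zbp1 (0.990), Trafd1 (0.983) and Shisa5 (0.973), and for Adar Sin3b (0.992), Daxx (0.990) and Sp100 (0.984). Irf9, Usp18, Zbp1, Daxx and Sp100 are known interferon targets. Irf9, a transcription factor of the interferon response, averaged 24.9 ± 6.82 TPM (WT) and 35.4 ± 7.78 TPM (Ifnar1-SA). Mavs was most like Lrrc8c (0.998), Nrf1 (0.997) and Isy1 (0.997), and Eif2ak2 like Ascc3 (0.987), Dusp5 (0.977) and Slc27a1 (0.977). With 6 points and so many genes, high values of r arise readily.

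The machinery around the receptors showed few differences. Where a pair of means ± SD is given for a gene from here on, WT comes first and Ifnar1-SA second (n = 3 each). For comparison with the lists below, 37.1% of all genes had higher means in Ifnar1-SA in unscaled TPM. That share depends on the scaling, and the lists were counted in unscaled TPM only. An unadjusted p under 0.05 (limma) was found for 1.44% on the higher and 1.68% on the lower side. Without overlap were 1.97% on the higher and 3.8% on the lower side. Of 18 tested regulators of RIG-I and MDA5, 0 were called by limma and 1 had an unadjusted p under 0.05, and the list median was −0.04, near that of all genes. On the lower side 2 of the 18 were without overlap, beside 3.8% of all genes, and on the higher side 0. One was the deubiquitinase gene Cyld (9.93 ± 0.201 and 9.01 ± 0.970 TPM), named after its values were seen. The gene with the low unadjusted p was Trim25, a ubiquitin ligase that activates RIG-I, at 9.99, 14.6 and 11.2 TPM (WT) and 21.9, 14.6 and 18.5 TPM (Ifnar1-SA). WT 2 and Ifnar1-SA 2 overlapped there too, at 14.63 and 14.57 TPM. The log2 difference of Trim25 was 0.58 ± 0.21 (standard error, limma, adjusted p = 0.9997). Rnf135, a ligase of the same kind, averaged 3.36 ± 0.625 and 3.94 ± 0.931 TPM, and the zinc finger antiviral gene Zc3hav1 23.7 ± 3.33 and 25.6 ± 4.01 TPM. Trim14, a MAVS-binding adaptor, averaged 10.5 ± 2.50 and 12.1 ± 1.50 TPM, and Trim13 2.68 ± 0.554 and 2.11 ± 0.703 TPM.

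Downstream of MAVS, 36 genes were tested, 0 were called by limma, 1 had an unadjusted p under 0.05 and the median was −0.04. The exception was Irf7, an interferon-induced transcription factor that drives interferon genes, at 2.01, 3.44 and 2.95 TPM (WT) and 28.1, 11.5 and 42.2 TPM (Ifnar1-SA) (log2 difference 2.74, standard error 0.44, limma adjusted p = 0.244). Its order over the Ifnar1-SA libraries, 3 highest and 2 lowest, was that of Ddx58, Ifih1 and Dhx58. Irf3, the constitutive factor that MAVS activates, averaged 26.1 ± 2.66 and 26.6 ± 6.39 TPM. The kinases Tbk1 (12.2 ± 0.880 and 11.7 ± 1.74 TPM) and Ikbke (8.79 ± 1.33 and 8.83 ± 2.98 TPM) were about level. The ligase Traf3 averaged 3.36 ± 0.713 and 3.10 ± 0.698 TPM, and Traf6 11.8 ± 2.93 and 8.07 ± 2.18 TPM. Of the NOD-like receptors that act on this pathway, Nlrx1 was at 1.31 ± 0.143 and 1.28 ± 0.459 TPM. Nlrc5, better known for inducing MHC class I, was at 4.003 ± 0.541 and 5.57 ± 1.48 TPM, without overlap (log2 difference 0.38, limma adjusted p = 0.9997).

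Of 20 genes around PKR and the eIF2 stress response, 5 had higher and 15 lower means in Ifnar1-SA, and 0 were called by limma. Higher means were found for 37.1% of all genes, so in unscaled TPM most genes were on the lower side. The median log2 difference of the 20 was −0.12, and 2 genes on the lower side had an unadjusted p under 0.05, beside 1.68% of all genes. Ddit3, a stress-induced transcription factor downstream of eIF2 phosphorylation, was at 218, 525 and 382 TPM (WT) and 245, 199 and 158 TPM (Ifnar1-SA). Trib3, a target of that factor, was at 39.6, 58.4 and 30.4 TPM (WT) and 33.1, 22.5 and 14.8 TPM (Ifnar1-SA). Both overlapped (log2 differences −0.83 and −0.86, limma adjusted p = 0.9997 each). The translated regulator Atf4 averaged 229 ± 53.9 and 184 ± 49.9 TPM, and the phosphatase subunit Ppp1r15a, which reverses eIF2 phosphorylation, 45.5 ± 16.4 and 31.5 ± 8.77 TPM. The PKR activator Prkra (5.30 ± 0.920 and 5.40 ± 0.962 TPM), the PKR inhibitor Dnajc3 (13.8 ± 1.83 and 13.9 ± 2.39 TPM) and Eif2s1, the PKR substrate (53.3 ± 12.2 and 53.6 ± 7.76 TPM), were about level. The sensor kinase Eif2ak4 averaged 3.08 ± 0.585 and 2.54 ± 0.548 TPM.

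Among the other genes of RNA editing, none passed the test. Of 9 tested, 1 had a higher mean (beside 37.1% of all genes), 0 were called by limma, 0 had an unadjusted p under 0.05, and the median was −0.15. Adarb1, the second adenosine deaminase, was at 12.9, 13.5 and 13.5 TPM (WT) and 13.2, 13.4 and 11.7 TPM (Ifnar1-SA). Its mean level of 13.3 ± 0.364 TPM in WT was above that of Adar, and in Ifnar1-SA its 12.8 ± 0.958 TPM lay close to it. The cytidine deaminase Apobec3 averaged 113 ± 7.12 and 116 ± 12.8 TPM. Apobec1, which edits cytidine in mRNA, averaged 1.93 ± 0.454 and 1.58 ± 0.0423 TPM and was the 1 gene of the list without overlap on the lower side. Adat2, which edits transfer RNA, averaged 8.75 ± 0.126 and 7.85 ± 1.06 TPM. Aimp2, a scaffold of the tRNA synthetase complex and not an editing enzyme, is in the list and averaged 141 ± 24.5 and 119 ± 22.6 TPM. Whether the difference of Adar departs from theirs was not tested.

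Other genes that bind or unwind RNA gave medians near that of all genes. For 15 genes of double-stranded RNA binding and silencing the median was −0.08, with 0 called by limma and 1 with an unadjusted p under 0.05. That gene, Dgcr8, a partner of Drosha in microRNA processing, was at 2.73, 1.97 and 1.88 TPM (WT) and 3.52, 2.96 and 3.63 TPM (Ifnar1-SA). Cdkn2aip averaged 5.66 ± 0.524 and 4.44 ± 0.564 TPM, Dicer1 1.45 ± 0.283 and 1.62 ± 0.381 TPM, Ago2 8.25 ± 2.50 and 7.69 ± 1.50 TPM, and Dhx9 3.003 ± 0.478 and 2.63 ± 0.297 TPM. Of 32 helicases and exosome partners, 0 were called by limma, 0 had an unadjusted p under 0.05 and 0 were without overlap (median −0.06). Among them Skiv2l and Ttc37, of the complex whose helicase resembles DDX60, averaged 13.8 ± 2.57 and 2.65 ± 0.599 TPM for WT and 14.5 ± 4.61 and 2.33 ± 0.688 TPM for Ifnar1-SA. Ddx24 averaged 54.5 ± 5.66 and 66.95 ± 13.4 TPM, Dhx15 29.1 ± 3.36 and 25.1 ± 1.60 TPM, Ddx3x 23.6 ± 2.50 and 22.7 ± 3.63 TPM, and Dhx36 4.19 ± 0.787 and 3.82 ± 0.872 TPM.

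Among other nucleic acid sensors, 12 of 27 were high enough to be tested, and 0 were called by limma. Means were higher for 9 of the 12 and lower for 3, where 37.1% of all genes had higher means. On the higher side 2 were without overlap (1.97% of all genes), and on the lower side 1 (3.8% of all genes). An unadjusted p under 0.05 was found for 3, all on the higher side, beside 1.44% of all genes. Oas3, an oligoadenylate synthetase that responds to double-stranded RNA, was at 9.50, 10.8 and 7.57 TPM (WT) and 19.6, 13.4 and 23.9 TPM (Ifnar1-SA). Zbp1, a sensor of left-handed nucleic acid whose activation ADAR1 restrains, was at 44.1, 42.7 and 39.3 TPM (WT) and 76.3, 51.9 and 107.6 TPM (Ifnar1-SA). Both were without overlap (log2 differences 0.93 and 0.83, limma adjusted p = 0.984 and 0.9997). The third, Oas1a, named after its values were seen, overlapped, at 0.449, 1.28 and 0.910 TPM against 3.36, 1.16 and 10.2 TPM. Ifnar1-SA 2 was the lowest Ifnar1-SA library for each of the 3, as it was for Ddx58, Ifih1, Dhx58 and Adar. It was also the lowest for Eif2ak2, Ddx60, Irf3 and Tbk1, so this order is not particular to the genes with higher means. Mb21d1, the DNA sensor cGAS, averaged 3.59 ± 0.592 and 3.62 ± 0.134 TPM. The endosomal RNA sensors were near the floor, with Tlr3 at most 0.219 TPM and Tlr7 at most 0.104 TPM in any library.

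Of 10 genes of nucleic acid clearance, 6 had higher means (beside 37.1% of all genes), 0 were called by limma and 0 had an unadjusted p under 0.05 (median 0.07). The nucleotide hydrolase Samhd1 averaged 179 ± 59.2 and 202 ± 43.9 TPM, and the exonuclease Trex1 153 ± 15.8 and 174 ± 41.1 TPM. Pnpt1 and Supv3l1, which degrade mitochondrial RNA, averaged 10.9 ± 2.61 and 10.9 ± 1.60 TPM for WT and 11.9 ± 2.36 and 9.47 ± 2.29 TPM for Ifnar1-SA. Dnase2a averaged 14.5 ± 0.724 and 16.2 ± 0.596 TPM.

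**Figure D5:**
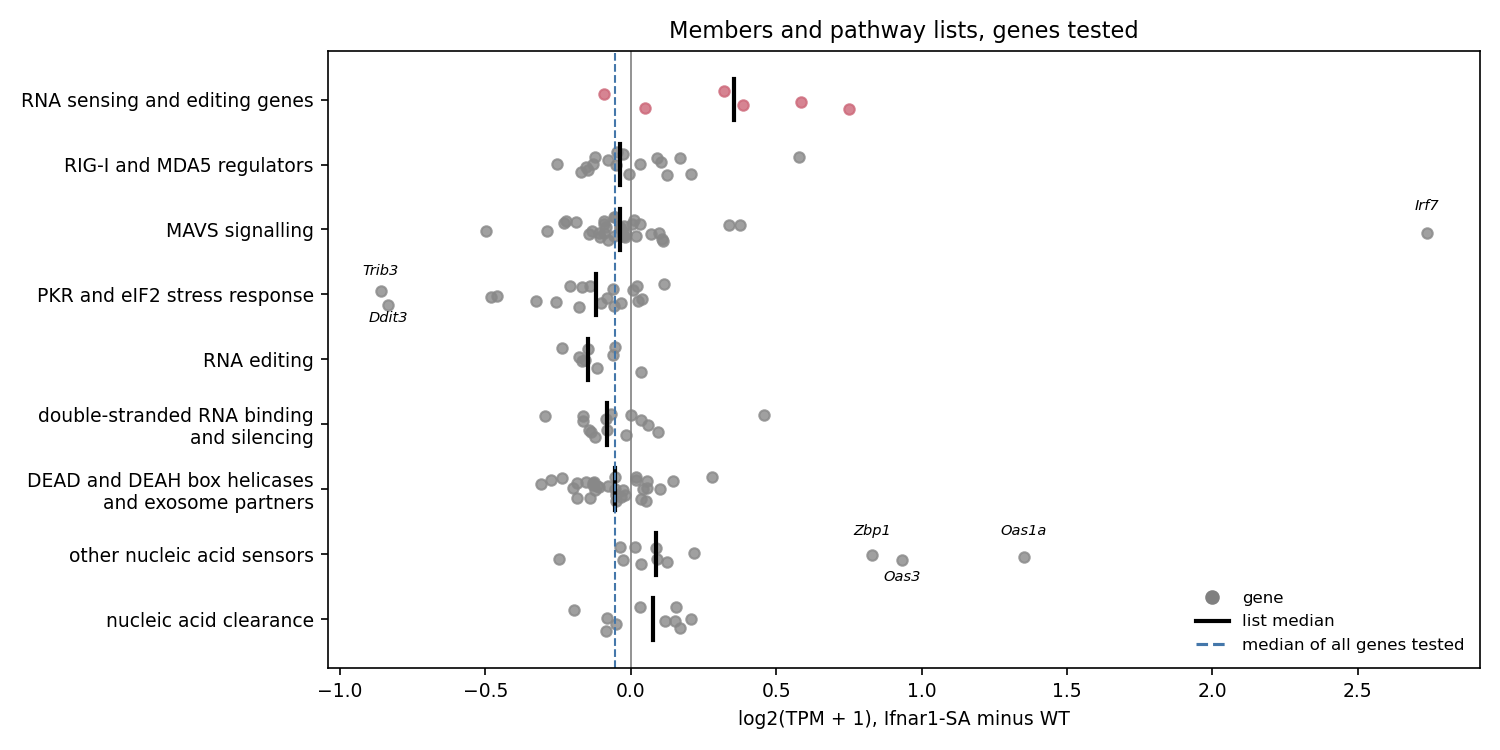
Log2(TPM + 1), Ifnar1-SA minus WT, of every gene tested in the set described and in 8 lists of related genes, with list medians (black) and the median of all genes tested (dashed). The set has a median of 0.35 and the lists have medians of −0.15 to 0.09, with Irf7 (2.74), Oas1a, Oas3 and Zbp1 far to the higher side and Trib3 and Ddit3 on the lower.

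Genes that mark other cells were checked because myeloid and dendritic cells express these sensors too. Summed over their lists, B and plasma cell markers were at 8.11 to 18.8 TPM for WT and 9.08 to 12.98 TPM for Ifnar1-SA, and macrophage and monocyte markers at 39.1 to 62.2 and 53.5 to 140.8 TPM, most of it Ly6c2, which activated T cells also express. The defining macrophage genes Csf1r, Adgre1 and Lyz2 averaged at most 0.637 TPM, and of 10 macrophage markers 0 were at 0 in every library. Cd68 of that list averaged 10.3 ± 2.78 and 9.20 ± 0.764 TPM, and Ccr2 1.67 ± 0.441 and 2.09 ± 0.642 TPM. Dendritic cell marker sums were 797 to 1393 and 951 to 1191 TPM, carried by H2-Ab1, Bst2 and Ccr7, with Itgax and Clec9a averaging at most 0.217 TPM. Siglech, Tcf4 and Xcr1 averaged 1.99, 2.03 and 1.60 TPM (WT) and 1.53, 1.57 and 1.65 TPM (Ifnar1-SA). Within the dendritic cell sum Bst2, itself an interferon target, was higher in Ifnar1-SA without overlap (212 to 268 against 393 to 675 TPM), as were 1.97% of all genes. Ccr7 averaged 216 ± 111 and 88.98 ± 44.6 TPM. Sums of CD8 T and NK cell markers were 1391 to 3889 and 2491 to 4233 TPM, carried by Nkg7 and Gzmb. Cd8a was at 2.70 ± 1.40 and 2.35 ± 0.729 TPM and Ncr1 at 0.387 ± 0.231 and 0.323 ± 0.140 TPM. Cd8b1 was higher than these, at 13.1 ± 2.68 and 12.1 ± 3.17 TPM. Of the same list Gzma, a granzyme, did not overlap at 31.6 to 36.3 TPM in WT and 61.4 to 109 TPM in Ifnar1-SA (log2 difference 1.28, limma adjusted p = 0.353), and Prf1, perforin, averaged 4.73 ± 1.91 and 8.29 ± 3.47 TPM. Neutrophil and mast cell sums did not overlap, at 10.2 to 15.1 TPM for WT and 19.4 to 25.6 TPM for Ifnar1-SA. This came through Ly6g at 6.51 ± 0.0492 and 17.04 ± 3.81 TPM, without overlap, as were 1.97% of all genes on the higher side. Of the 3 genes of that list tested, the other 2 had lower means in Ifnar1-SA. They were S100a9 (2.07 ± 1.27 and 1.58 ± 0.625 TPM) and Csf3r (2.80 ± 0.435 and 2.48 ± 0.723 TPM). Elane and Mpo averaged at most 0.103 TPM. Erythroid and platelet sums were at most 1.89 TPM, with Hbb-bs at 0 TPM in every library. The part of other cells in the levels of the RNA sensing genes was not tested, and fewer cells of a type and less RNA per cell cannot be told apart in these bulk libraries.

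Reads of overlapping genes may enter these values, since strand-aware quantification is not given in the sources used here. Chrnb2, a receptor gene that overlaps Adar on the other strand, was at most 0.167 TPM in any library. Dhx58os overlaps Dhx58 on the other strand, and Gm26637 and a ribosomal RNA gene overlap Eif2ak2 in the same way, and no level of theirs was used here. The annotation lists no overlapping gene for Ddx58, Ifih1, Mavs and Ddx60.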

How the data were processed

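Messenger RNA was sequenced from 6 libraries, and the authors deposited their TPM per gene in 1 table with 6 value columns, each matched to 1 sample by its title. The submitters' processing notes name Salmon and, as builds, mm10 and GRCm38. The version of Salmon and the annotation were not given in the sources used here. Since TPM keeps no depth, no counting interval or count model was possible.

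Values were tested as log2(TPM + 1) for genes averaging 1 TPM or more, with limma 3.58.1 (R 4.3.3), an intensity trend, two-sided, Benjamini-Hochberg adjustment over 12141 genes and a threshold of 0.05. An exact two-sided permutation test was planned for values below that level and was computed for all 7 genes. Its p is given above for Dhx58, Adar and Ddx60. It was 0.2 for Ddx58, 0.1 for Ifih1, 0.8 for Eif2ak2 and highest for Mavs. The procedure was tested on simulated data with independent normal noise for each gene, and the outcome is not reported here. The simulated data held no shift shared by the genes of a library, so that test does not cover such shifts. The genes, the 8 related lists and the 8 marker lists, and the pair WT 2 and Ifnar1-SA 1 left out together, were chosen with earlier results of these data known. Named genes were the 7 genes, fixed members of each list and the 2 of smallest p per list, while Oas1a, Cyld and the examples among marker genes were named after their values were seen. A few genes that these rules name are not reported here. Likeness was Pearson's r over 6 libraries, the 3 highest per gene. Alternatives were other pseudocounts, filters, scalings and weights, no trend, a replicate block and leaving out libraries. TMM was computed directly, unweighted. Python 3.11.15, pandas 2.3.3, scipy 1.17.1 and matplotlib 3.10.9 were used.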

Additional observations from a re-analysis of the deposited data

How the results depend on the processing

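None of the 6 genes tested passed an adjusted p of 0.05 under any of the 17 alternatives (limma, adjusted p 0.452 to 0.999975). Of 100 values of these genes under the alternatives that could include them, 94 kept their direction and 6 reversed, all of Mavs or Eif2ak2. Mavs went from −0.09 to 0.00093 with median-of-ratios and 0.037 with TMM scaling, and from −0.26 to 0.016 when single libraries were left out, turning without WT 2 (0.016). Eif2ak2 went from −0.11 (without WT 1) to 0.28 (without WT 2), and was also below 0 without WT 3 (−0.02) and without Ifnar1-SA 1 (−0.06). The median log2 difference relative to all genes, 0.41, was 0.23 to 0.53 when single libraries were left out (lowest without Ifnar1-SA 3, highest without Ifnar1-SA 2) and 0.55 with a pseudocount of 0.1. The count without overlap on the higher side, 2 (beside 1.97% of all genes), was 1 with a filter at 5 TPM, which leaves out Ddx58 and Ifih1 (2.04%), 4 with median-of-ratios (3.68%), 5 with TMM (4.28%) and 3 with quantile scaling (4.55%), and 5 without both WT 2 and Ifnar1-SA 1 (6.83%). It was 2 to 5 when single libraries were left out, with 5 without WT 2 (4.84%), 4 without Ifnar1-SA 2 (4.91%) and 2 in the other 4 (2.63 to 8.36%), and fewer libraries overlap less by construction. Genes called over all numbered 7, and 15 and 14 with pseudocounts of 0.1 and 0.5, 1 with a filter at 5 TPM, 12 with array weights, 15 to 28 when single libraries were left out and 0 without the pair. The cause of these shifts was not tested.

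The labels do not say what a replicate number shares. Same-numbered libraries deviated from their genotype means with r of −0.112, −0.106 and 0.151 across genes, so the numbers were not taken to pair the samples. With a replicate block 0 of the 6 genes passed (lowest adjusted p = 0.999523), 2 were without overlap, the median was 0.41 relative to all genes, and 0 genes were called over all.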
